A study of Mus musculus with 30 samples.

Results

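The alpha-arrestins are a family of adaptor proteins, and 5 of its genes, *Arrdc1*, *Arrdc2*, *Arrdc3*, *Arrdc4* and *Txnip*, were followed by symbol among the 36103 genes counted. *Arrdc2* was chosen by its measured read counts, which were lower in *Mtm1*-/y mice in each of 4 organs, and the other 4 genes were taken as its paralogs to ask whether they share that difference. The *Arrdc2* values below are therefore given as a description with no test, and the tests concern the 4 paralogs. RNA was sequenced from 30 organs: gastrocnemius and heart (4 WT and 4 *Mtm1*-/y libraries each), diaphragm (4 WT and 3 *Mtm1*-/y) and liver (3 WT and 4 *Mtm1*-/y). The mice were 5 weeks old and of 1 inbred background. *Mtm1*-/y mice carry a knock-out of the X-linked *Mtm1*, which encodes the phosphoinositide phosphatase myotubularin, in every tissue, and the WT mice were their littermates. These were whole-organ samples, in which fewer cells of a type and less RNA per cell cannot be told apart.

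Alpha-arrestins resemble the visual and beta-arrestins in their fold. Most carry PPxY motifs that recruit ubiquitin ligases of the NEDD4 family to membrane proteins, which are then sorted through endosomes. *Txnip* encodes thioredoxin-interacting protein, which binds thioredoxin, lowers glucose uptake and is induced by glucose through the Mlx and MondoA factors. *Arrdc4* is its closest relative and another glucose-responsive gene, *Arrdc3* is known for its part in beta-adrenergic receptor traffic and adiposity, *Arrdc1* for the budding of vesicles from the cell surface with the ESCRT protein Tsg101, and *Arrdc2* as a gene of skeletal muscle that responds to loading and to catabolic signals.

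The genes lie on different mouse chromosomes (mm10, the GRCm38 build): *Arrdc2* (ENSMUSG00000002910) at chr8:70835129-70839720, *Txnip* (ENSMUSG00000038393) at chr3:96557957-96561883, *Arrdc3* (ENSMUSG00000074794) at chr13:80883384-80896042, *Arrdc4* (ENSMUSG00000042659) at chr7:68736995-68749241 and *Arrdc1* (ENSMUSG00000026972) at chr2:24925352-24935252. *Arrdc3* overlaps the antisense gene *1700023H06Rik*, which had at most 3 counts in a library, and *Txnip* overlaps the antisense *Gm15441*, with at most 34 counts, whereas the other 3 members overlap no annotated gene. The promoters of *Arrdc2*, *Txnip* and *Arrdc4*, from 250 bases before to 50 bases after the gene start (RefSeq, GRCm38.p6), are shown because the question is whether paralogs behave as *Arrdc2* does, and *Txnip* and *Arrdc4* are the members whose glucose response is known from such sequence. Each runs 5′ to 3′ on the strand of its gene. Capitals mark CCAAT on either strand (written ATTGG on the other), in *Txnip* also a pair of CACGNG letters with a gap of 5 bases, and in *Arrdc4* also the E-box CACGTG.
Arrdc2, chr8:70839671-70839970, minus strand: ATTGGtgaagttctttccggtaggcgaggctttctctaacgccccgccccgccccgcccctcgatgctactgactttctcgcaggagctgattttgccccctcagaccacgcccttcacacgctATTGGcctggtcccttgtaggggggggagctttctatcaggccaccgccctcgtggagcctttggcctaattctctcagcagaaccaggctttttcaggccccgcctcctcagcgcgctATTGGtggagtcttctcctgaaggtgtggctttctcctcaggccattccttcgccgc
Txnip, chr3:96557707-96558006, plus strand: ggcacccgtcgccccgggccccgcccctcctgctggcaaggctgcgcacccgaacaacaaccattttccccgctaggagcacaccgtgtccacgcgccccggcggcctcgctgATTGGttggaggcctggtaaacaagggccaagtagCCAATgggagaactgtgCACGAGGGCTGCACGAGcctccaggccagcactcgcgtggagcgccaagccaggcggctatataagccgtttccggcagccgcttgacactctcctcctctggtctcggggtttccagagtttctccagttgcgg
Arrdc4, chr7:68749189-68749488, minus strand: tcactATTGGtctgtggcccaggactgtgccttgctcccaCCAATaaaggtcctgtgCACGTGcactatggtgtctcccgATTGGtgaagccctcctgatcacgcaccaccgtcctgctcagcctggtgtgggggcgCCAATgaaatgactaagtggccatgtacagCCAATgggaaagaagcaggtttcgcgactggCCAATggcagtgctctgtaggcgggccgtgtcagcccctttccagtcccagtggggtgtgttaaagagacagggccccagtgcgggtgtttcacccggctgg

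The *Arrdc2* window held CCAAT at 3 places, that of *Txnip* at 2 and that of *Arrdc4* at 6, all counted on both strands. Of the 32851 promoters of this length in the RefSeq table, 37.4% held at least 1 CCAAT and 3.37% held 3 or more. The pair of CACGNG with a 5-base gap, found 1 time in *Txnip* at 85 bases before its start, occurred in 0.0487% of all promoters and in no window of the other members. CACGTG, found 1 time in *Arrdc4*, occurred in 7.15%. The FoxO-type letters TGTTTAC matched 1 time in *Txnip* (3.65% of all promoters), without overlapping the capitals. The glucocorticoid-type letters AGAACA and TGTTCT with a 3-base gap (0.00913%) and TGTTCT alone (19%) matched in no member, including the 3 windows listed for *Arrdc3*. GGGCGG, present in 35.7% of promoters and at 3 or more places in 10.7%, matched at 4 places in *Arrdc2*. Those at 207, 202 and 197 bases before its start shared letters. It also matched in *Arrdc1* (2 places), *Txnip* (1) and each *Arrdc3* window (1 or 2), but not in *Arrdc4*. These matches describe letters, and binding was not measured.

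Library totals ran from 24873817 to 44289343 counts, and levels are given in CPM (counts scaled to a fixed library size) after TMM scaling within each organ. Reads of *Mtm1* itself checked the genotype labels: in the gastrocnemius they were at 18.8 to 20.6 CPM in WT and 3.98 to 5.33 CPM in *Mtm1*-/y, and the genotypes were apart in the diaphragm (18.7 to 28.5 against 4.39 to 4.88 CPM), heart (25.1 to 31.7 against 4.07 to 4.83 CPM) and liver (12.5 to 19.0 against 3.37 to 6.39 CPM) as well. The defining markers of each labelled organ were present in all of its libraries. The 6 hepatocyte markers summed to 438 to 43328 plain CPM (counts over the library total alone) in the 7 diaphragm libraries, against at most 92.0 for gastrocnemius and 139 for heart, and 4 diaphragm libraries (WT 1, 2 and 4 and *Mtm1*-/y 2) had over 10000 plain CPM of *Alb*. Genotype differences that involve the diaphragm are therefore also given without these 4 where that changes a call, direction or size (by over 1.5 times). Differences between WT organs are given in this way where a call or a direction changes. White adipocyte markers moved with genotype in opposite directions, from 17.5 to 75.8 plain CPM in WT to 83.2 to 173 in *Mtm1*-/y gastrocnemius, and from 34.3 to 142 to 5.39 to 13.9 in the heart. In the gastrocnemius the 5 macrophage markers went from 23.4 to 43.5 plain CPM in WT to 70.7 to 91.2 in *Mtm1*-/y, and the sum of the 6 skeletal fibre markers from 161299 to 177818 down to 123785 to 133698. Among those 6, *Myh1* went the other way, from 2335 to 3816 up to 6880 to 8982, and the rest were lower. The 6 cardiomyocyte markers summed to 5559 to 6677 plain CPM in WT and 653 to 2556 in *Mtm1*-/y gastrocnemius. Most of that sum was *Actc1* (5346 to 6350 against 401 to 2323). *Tnnt2* (2.64 to 5.00 against 10.8 to 22.5) and *Tnni3* (0.463 to 0.726 against 1.07 to 1.78) instead rose from low levels. *Myh6* overlapped, and *Nppa* and *Myl7* were near 0. In the diaphragm the sum of the 5 fibroblast markers separated the genotypes (values beside *Arrdc2* below), although *Pdgfra* and *Dcn* overlapped on their own. The sum of the 5 endothelial markers separated them narrowly there (478 to 560 against 442 to 473 plain CPM), while each of the 5 overlapped on its own. The part of all these markers in the results below was not tested.

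In the gastrocnemius, *Arrdc2* was at 105, 121, 156 and 187 CPM in the WT libraries and at 44.7, 48.8, 85.3 and 30.7 CPM in the *Mtm1*-/y libraries. In the diaphragm it was at 76.6, 66.6, 124 and 103 CPM in WT and at 19.5, 48.9 and 32.0 CPM in *Mtm1*-/y. The lowest WT library was above the highest *Mtm1*-/y library in both muscles. In the heart the levels were 25.1, 22.6, 27.3 and 39.5 CPM against 9.77, 14.4, 9.99 and 13.9 CPM, and in the liver 59.9, 122 and 67.2 CPM against 18.3, 22.5, 32.5 and 28.2 CPM. The genotypes did not overlap in these organs either. Of 12610 genes tested in all 4 organs, 3 (0.0238%) were lower without overlap throughout. These were *Arrdc2*, *Mtm1* and *Hif3a*, which encodes a hypoxia-inducible factor subunit and is named here after its values were seen. *Arrdc2* was chosen by these same values, so its place among the 3 adds no support. No gene was higher without overlap in all 4.

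As a description, the *Arrdc2* log2 fold change (*Mtm1*-/y against WT) was −1.45 (SE 0.29) for gastrocnemius, −1.47 (SE 0.36) for diaphragm, −1.25 (SE 0.20) for heart and −1.71 (SE 0.28) for liver. Averaged over the organs in 1 fit of all 30 libraries it was −1.47 (SE 0.16), and −1.66 without the 4 diaphragm libraries high in *Alb*. As the genotypes did not overlap in any organ, leaving out 1 library could not turn the direction. The size then ran from −1.05 in the heart without WT 4 to −1.90 in the liver without WT 1. Within the diaphragm, leaving out these 4 keeps 1 WT and 2 *Mtm1*-/y libraries and gave −2.27, so the size of the difference there depends on these libraries and their part in it was not tested. The sum of the 5 fibroblast markers, from 1693 to 3566 plain CPM in WT diaphragm and from 3719 to 8072 in *Mtm1*-/y, moved with genotype beside it. Among these markers *Col1a1*, *Lum* and *Col3a1* separated the genotypes on their own, and *Pdgfra* and *Dcn* overlapped.

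**Figure D1:**
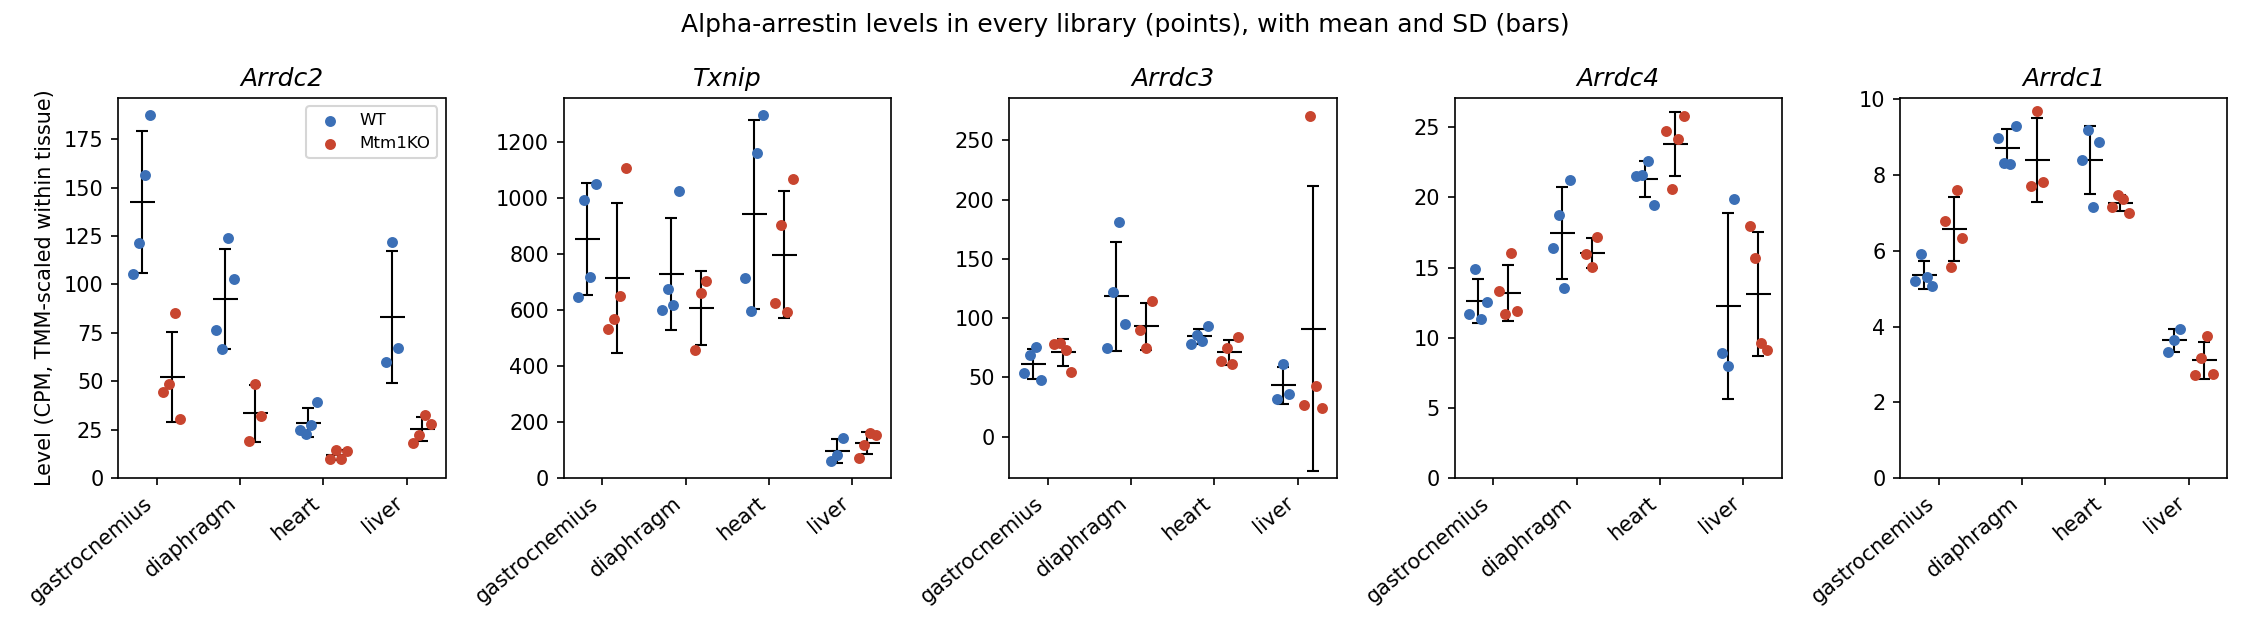
Level of each alpha-arrestin (CPM, TMM-scaled within each organ) in every WT library (blue) and every *Mtm1*-/y library (red, labelled Mtm1KO), with the group mean and SD as black bars. The red *Arrdc2* points lie below all blue ones in each organ, whereas the genotypes overlap for the 4 paralogs, and 1 *Mtm1*-/y liver stands alone at 271 CPM of *Arrdc3*, which carries the lower SD bar of that group below 0.

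None of the 4 paralogs was apart between the genotypes in any organ. In the gastrocnemius 0 of 4 passed edgeR's quasi-likelihood test at an adjusted p under 0.05, where 29% of all genes tested did. In the diaphragm, heart and liver 0 of 4 passed too, but hardly any gene did there: 0.0119%, 0.00656% and 0% of all genes tested. At an unadjusted p under 0.05 the counts were 1 of 4 for gastrocnemius (41.6% of all genes), 1 of 4 for heart (8.88%) and 0 of 4 for diaphragm (10.8%) and liver (4.24%), and DESeq2 called 0 of 4 in each organ, giving no adjusted p for *Arrdc3* in the liver (30%, 2.55%, 0.459% and 0.175% of all genes in the gastrocnemius, diaphragm, heart and liver). Over the 16 combinations of paralog and organ, 9 estimates were below 0 and 7 above, and the genotypes overlapped in all 16, whereas 16% of gastrocnemius genes, 4.57% of diaphragm genes, 2.16% of heart genes and 3.47% of liver genes were lower without overlap and 14.7%, 5.4%, 2.1% and 2.62% were higher. The lower bound of the 95% interval lay above a log2 fold change of −1 in 15 of the 16, the exception being *Arrdc3* in the diaphragm. For *Arrdc3* in the liver this bound (−0.85) rests on *Mtm1*-/y library 2. Without that library the estimate was −0.47 instead of 1.07, and no interval is given for that case.

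**Figure D2:**
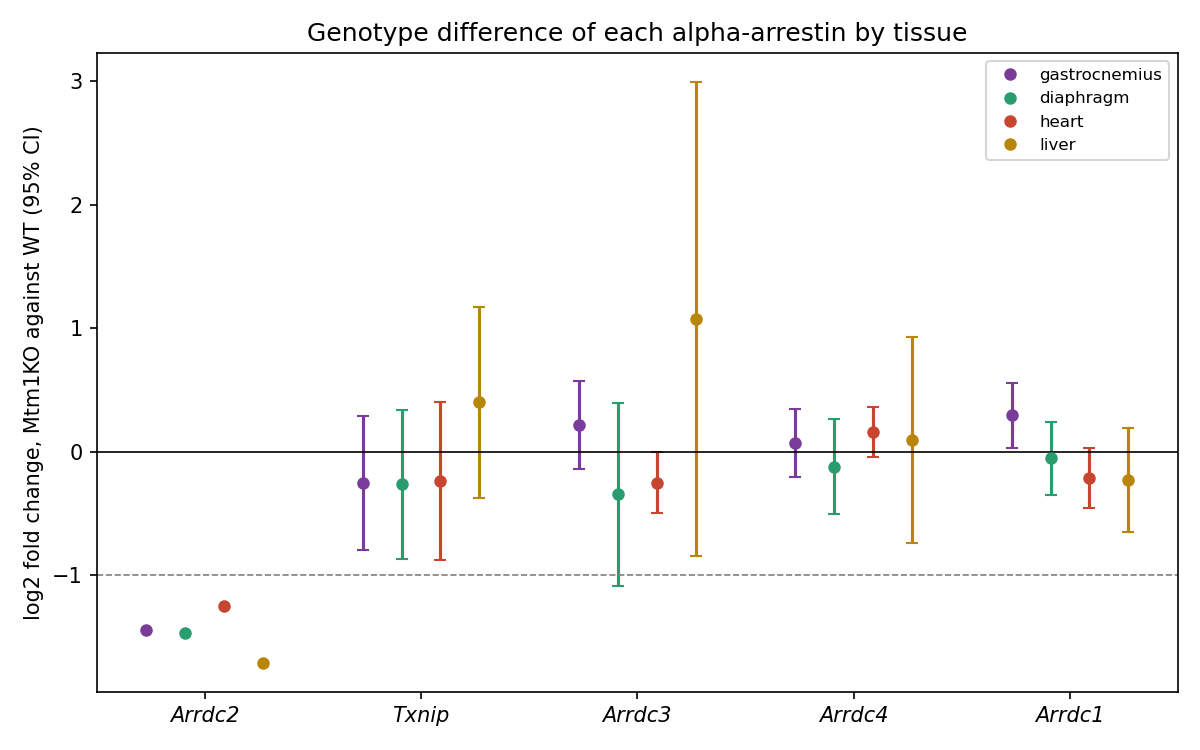
Log2 fold change of *Mtm1*-/y (Mtm1KO) against WT for each alpha-arrestin (horizontal axis) and organ (colour), with the 95% confidence interval from edgeR as bars for the 4 paralogs and no bars for *Arrdc2*, whose estimates chose it. The black line marks no difference and the dashed line a log2 fold change of −1. The 4 *Arrdc2* estimates lie between −1.25 and −1.71, and of the 16 paralog estimates the widest interval is that of *Arrdc3* in the liver, from −0.85 to 2.99.

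*Txnip* spread widely between libraries of a group. In the gastrocnemius it was at 646, 991, 719 and 1050 CPM in WT and at 533, 566, 650 and 1107 CPM in *Mtm1*-/y. In *Mtm1*-/y, libraries 1 and 2 were below every WT library, library 3 was just above the lowest WT library, and library 4 was the highest of all 8. The log2 fold change was −0.25 (SE 0.24, adjusted p = 0.46, edgeR). Without *Mtm1*-/y library 4 it was −0.54 (adjusted p = 0.049, edgeR), so that library alone decides the call. In the diaphragm *Txnip* spanned 601 to 1023 CPM in WT and 458 to 702 CPM in *Mtm1*-/y, a difference of −0.26 in log2 (SE 0.25, adjusted p = 0.80, edgeR), and −0.09 (adjusted p = 0.95) without the 4 libraries high in *Alb*, where 1 WT library is assumed to vary like the others. In the heart it spanned 597 to 1293 and 594 to 1068 CPM (−0.24, SE 0.28, adjusted p = 0.73, edgeR). The liver had much less of it, at 61.2, 82.4 and 144 CPM in WT and 72.8, 117, 162 and 153 CPM in *Mtm1*-/y, with the estimate on the other side of 0 (0.40, SE 0.34, adjusted p = 0.97, edgeR). Each of the *Txnip* intervals held 0, and the lowest bound among them was −0.88, in the heart.

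*Arrdc3* differed most between libraries of 1 group. In the liver it was at 32.1, 61.4 and 36.5 CPM in WT and at 26.5, 271, 42.8 and 24.6 CPM in *Mtm1*-/y. A single *Mtm1*-/y liver, library 2, thus stood far above every other liver, and the other 3 lay within or below the WT range. The log2 fold change of 1.07 (SE 0.84, adjusted p = 0.97, edgeR) turned to −0.47 (adjusted p = 0.94, edgeR) without that library. In the heart *Arrdc3* was at 78.2, 85.9, 81.0 and 93.2 CPM in WT and at 63.9, 74.8, 61.7 and 84.1 CPM in *Mtm1*-/y. Here 3 *Mtm1*-/y hearts were below all WT hearts, library 4 was inside the WT range, and the difference did not pass the adjusted threshold (log2 fold change −0.25, SE 0.11, unadjusted p = 0.047, adjusted p = 0.55, edgeR). In the gastrocnemius the estimate was 0.22 (SE 0.16, adjusted p = 0.33, edgeR) and in the diaphragm −0.35 (SE 0.31, adjusted p = 0.78, edgeR), with overlapping ranges of 47.6 to 75.4 against 54.7 to 79.1 CPM and 75.2 to 181 against 74.9 to 114 CPM. The interval for the diaphragm reached down to −1.09. Without the 4 libraries high in *Alb* the diaphragm estimate for *Arrdc3* was −0.83 (adjusted p = 0.60, edgeR), a comparison of 1 WT library, assumed to vary like the 2 *Mtm1*-/y libraries, with those 2.

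*Arrdc4* and *Arrdc1* were at low levels. *Arrdc4* ranged from 11.4 to 16.0 CPM over the 8 gastrocnemius libraries, from 13.5 to 21.2 CPM over the 7 diaphragm libraries, from 19.5 to 25.8 CPM over the 8 hearts and from 8.01 to 19.9 CPM over the 7 livers. Its log2 fold changes were 0.07 (SE 0.12), −0.12 (SE 0.16), 0.16 (SE 0.09) and 0.10 (SE 0.37) in that order, with adjusted p of 0.71, 0.89, 0.55 and 0.98 (edgeR). Without the 4 libraries high in *Alb* the *Arrdc4* estimate for the diaphragm was 0.29 (adjusted p = 0.72, edgeR, again with 1 WT library). *Arrdc1* was at 5.20, 5.91, 5.30 and 5.07 CPM in WT gastrocnemius and at 6.78, 5.57, 7.62 and 6.35 CPM in *Mtm1*-/y. In *Mtm1*-/y, libraries 1, 3 and 4 were above all WT libraries and library 2 was inside the WT range, so the direction was opposite to that of *Arrdc2*. The log2 fold change was 0.29 (SE 0.12, unadjusted p = 0.033, adjusted p = 0.090, edgeR), and without *Mtm1*-/y library 2 it was 0.37 (adjusted p = 0.038, edgeR). In the diaphragm, heart and liver the *Arrdc1* estimates were −0.05 (SE 0.13), −0.21 (SE 0.11) and −0.23 (SE 0.19), with adjusted p of 0.95, 0.55 and 0.97 (edgeR), and that of the diaphragm was −0.10 (adjusted p = 0.94) without the libraries high in *Alb*.

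A shift too small for 1 organ could add up over 4. The mean log2 fold change over the organs, from all 30 libraries, was −0.09 for *Txnip* (95% interval −0.44 to 0.25, adjusted p = 0.87, edgeR), 0.17 for *Arrdc3* (−0.35 to 0.69, adjusted p = 0.82), 0.04 for *Arrdc4* (−0.19 to 0.28, adjusted p = 0.94) and −0.06 for *Arrdc1* (−0.18 to 0.07, adjusted p = 0.71). Thus 0 of the 4 paralogs passed, against 4.78% of all genes (2.02% lower), and 0 had an unadjusted p under 0.05. Without *Mtm1*-/y liver 2 the mean for *Arrdc3* was −0.21 (adjusted p = 0.37, edgeR). Without the 4 diaphragm libraries high in *Alb* the means were 0.16 for *Arrdc4*, 0.07 for *Arrdc3* and −0.03 for *Txnip*. With all 30 libraries, taken as independent, the intervals of the paralogs did not go below −0.44. A test of whether the genotype effect differed between organs called 0 of 4 (5.25% of all genes), and 1 at an unadjusted p under 0.05, with the smallest p for *Arrdc1* (unadjusted p = 0.020, adjusted p = 0.15, edgeR).

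The family also differs between organs of WT mice, a contrast that did not enter the choice of *Arrdc2*. On a common scale of the 15 WT libraries, the *Arrdc2* level was 157 ± 40.9 CPM (SD, n = 4) for gastrocnemius, 101 ± 41.9 CPM (n = 3) for liver, 78.5 ± 20.8 CPM (n = 4) for diaphragm and 23.9 ± 6.23 CPM (n = 4) for heart. The heart was lowest by 1.72 to 2.72 on the log2 scale (adjusted p from 1.8e-06 to 0.00016, edgeR), and the gastrocnemius was above the diaphragm by 1.00 (SE 0.27, adjusted p = 0.0064, edgeR). Of the 4 WT diaphragms, 3 were high in *Alb*, and with only the other one, assumed to vary like the rest, the gastrocnemius was above the diaphragm by 0.55 (adjusted p = 0.39, edgeR), and the diaphragm minus liver difference turned to 0.061 (adjusted p = 0.91). The liver did not differ beyond the spread from its neighbours in this order, the gastrocnemius (0.63, SE 0.29, adjusted p = 0.062, edgeR) and the diaphragm (−0.37 for diaphragm minus liver, SE 0.29, adjusted p = 0.26). Without WT liver 2, which held 122 CPM on the scale within the liver, the gastrocnemius was above the liver by 1.02 (adjusted p = 0.0068, edgeR), and without WT gastrocnemius 1 by 0.76 (adjusted p = 0.037). Of all genes, 54.4% passed between gastrocnemius and diaphragm, 61.3% between gastrocnemius and heart, 79.5% between gastrocnemius and liver, 51.7% between diaphragm and heart, 76.1% between diaphragm and liver and 76.4% between heart and liver.

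*Txnip* showed another order, at 938 ± 224 CPM (SD, n = 4) in the gastrocnemius, 784 ± 282 CPM (n = 4) in the heart, 620 ± 171 CPM (n = 4) in the diaphragm and 117 ± 52.7 CPM (n = 3) in the liver. The 3 striated muscles did not pass against one another (adjusted p of 0.49, 0.12 and 0.38, edgeR), except that with the replicate number as a block the gastrocnemius was above the diaphragm by 0.61 (adjusted p = 0.045), and each was above the liver, 8.02-fold, 6.71-fold and 5.31-fold in the order just given for gastrocnemius, heart and diaphragm (adjusted p from 4.1e-06 to 3.9e-05, edgeR). *Arrdc1* was lower in the liver (4.45 ± 0.395 CPM, n = 3) than in the gastrocnemius (5.91 ± 0.412 CPM), heart (7.01 ± 0.740 CPM) and diaphragm (7.43 ± 0.484 CPM, n = 4 each), with adjusted p from 5.8e-05 to 0.0050 (edgeR). *Arrdc1* was also lower in the gastrocnemius than in the diaphragm (−0.33, SE 0.11, adjusted p = 0.017, edgeR), though not with only the WT diaphragm low in *Alb* (−0.29, adjusted p = 0.30). Gastrocnemius against heart (−0.25, adjusted p = 0.056) passed for *Arrdc1* without WT gastrocnemius 2, WT diaphragm 1, 3 or 4, WT heart 3 or WT liver 1 (adjusted p from 0.020 to 0.050). *Arrdc3* ran from 52.9 ± 19.6 CPM in the liver to 100.2 ± 37.4 CPM in the diaphragm, the 1 pair of organs that passed for it (0.92, SE 0.28, adjusted p = 0.0081, edgeR). Gastrocnemius against diaphragm (adjusted p = 0.070) passed for *Arrdc3* without WT diaphragm 1 or 4, WT heart 1 or 4 or WT liver 2 (log2 differences from −0.81 to −0.57), with the replicate number as a block (−0.54, adjusted p = 0.047), and with only the WT diaphragm low in *Alb* (−1.22, adjusted p = 0.0091), and without WT liver 2 both gastrocnemius (0.69, adjusted p = 0.039, edgeR) and heart (0.76, adjusted p = 0.027) were above the liver. Without WT diaphragm 1 the diaphragm was above the heart by 0.72 (adjusted p = 0.024), and with only the WT diaphragm low in *Alb* it was above the heart by 1.13 (adjusted p = 0.012) and above the liver by 1.55 (adjusted p = 0.00055). *Arrdc4* lay between group means of 13.9 and 17.8 CPM in all 4 organs and passed in none of the 6 pairs. It depended on WT liver 3, which held 19.9 CPM against 8.01 and 8.94 CPM in the other WT livers on the scale within the liver: without it the heart was above the liver by 0.78 (adjusted p = 0.0010, edgeR), the diaphragm by 0.53 (adjusted p = 0.013), and the gastrocnemius by 0.43 (adjusted p = 0.035), and the gastrocnemius was below the heart by 0.36 (adjusted p = 0.034).

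Over all 4 organs together, edgeR's F test called 4 of the 5 members, all but *Arrdc4* (adjusted p = 0.50), where 92.5% of all genes passed, so differing between organs is no mark of this family. The smallest adjusted p belonged to *Arrdc2* (5.1e-06) and the largest among those called to *Arrdc3* (0.030). *Arrdc3* no longer passed with DESeq2's size factors in the same fit or without WT diaphragm 2, WT diaphragm 3, WT liver 1 or WT liver 3. The median of all genes was shifted by up to 0.13 between 2 organs (heart against liver), and the differences above for *Arrdc2*, *Txnip* and *Arrdc1* that passed were larger than that.

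Per kilobase of exon, which makes genes comparable, *Txnip* had the highest group mean of the 5 in every organ. Its share of the summed CPM per kb of the 5 genes was 81.9% ± 3.08 (SD, n = 4) in WT gastrocnemius, 80.4% ± 5.37 (n = 4) in WT diaphragm, 90.0% ± 2.86 (n = 4) in WT heart and 44.7% ± 12.3 (n = 3) in WT liver. *Arrdc2* came second in the gastrocnemius (13.4% ± 2.63), diaphragm (10.1% ± 2.86) and liver (38.2% ± 11.3), and in the heart (2.76% ± 0.468) it came after *Txnip* and *Arrdc3* (4.40% ± 1.42). In WT livers the ranges of *Txnip* (34.1% to 58.2%) and *Arrdc2* (26.3% to 48.8%) overlapped, and in *Mtm1*-/y liver 2 the share of *Arrdc3* (46.5%) was above that of *Txnip* (40.5%). In *Mtm1*-/y organs the *Arrdc2* share was 6.70% ± 3.24 (n = 4) for gastrocnemius, 4.47% ± 1.46 (n = 3) for diaphragm, 1.35% ± 0.130 (n = 4) for heart and 12.3% ± 3.28 (n = 4) for liver. The shares add up to the whole, so a lower share of 1 gene raises those of the rest, and these values follow from the levels above.

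**Figure D3:**
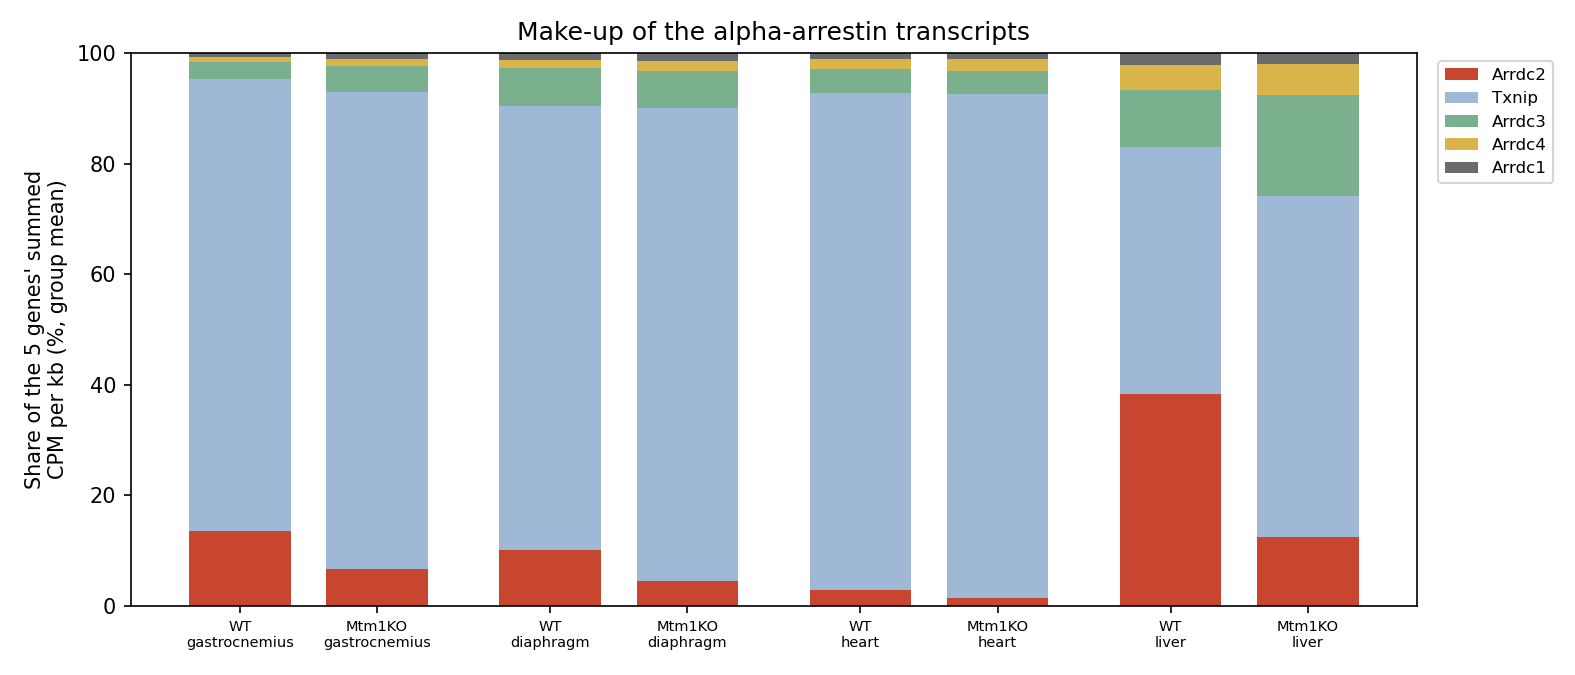
Share of each gene (colour) in the summed CPM per kb of the 5 alpha-arrestins, as the group mean in percent, for WT and *Mtm1*-/y (Mtm1KO) libraries of each organ. *Txnip* fills the largest part of each bar, and the *Arrdc2* part goes from 38.2% to 12.3% in the liver and from 13.4% to 6.70% in the gastrocnemius.

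The members differed in how much they varied among libraries of 1 group. After removing the group means, the SD of log2 CPM of *Arrdc2* was 0.50 for gastrocnemius, 0.52 for diaphragm, 0.33 for heart and 0.45 for liver, above those of 97.6%, 86.3%, 87.3% and 91.5% of the genes with at least 5 CPM. For *Txnip* the SDs were 0.42, 0.35, 0.48 and 0.57 (above 95.9%, 75.3%, 94.6% and 95.5% of genes). *Arrdc3* reached 1.29 in the liver (99.6% of genes), from the single library described above, and was 0.28 for gastrocnemius (88.6%), 0.46 for diaphragm (83.8%) and 0.17 for heart (55.1%). *Arrdc4* ranged from 0.12 in the heart to 0.59 in the liver (31.7% and 95.9% of genes), and *Arrdc1* stayed between 0.12 and 0.18.

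Across the 30 libraries, again with the mean of each organ and genotype removed, *Arrdc2* and *Txnip* had a Pearson r of 0.35, *Arrdc2* and *Arrdc1* 0.38, *Arrdc2* and *Arrdc3* 0.15 (0.42 without *Mtm1*-/y liver 2) and *Arrdc2* and *Arrdc4* −0.29. These are descriptions over libraries that share depth and dissection, and with no p. The genes most like *Arrdc2* by this measure, among 10110 genes, were *Itga3*, an integrin chain (r = 0.70), *Slco2a1*, a prostaglandin transporter (0.69), *Pde4d*, a cAMP phosphodiesterase (0.68), the predicted gene *Gm7694* (0.67) and *Celsr2*, an adhesion receptor (0.66). Top values here and below are picked from that many genes, and how high they would run for unrelated genes was not tested. The most opposed were *Gm49759* and *Ccdc130* (both −0.64), although without *Mtm1*-/y liver 2 *St8sia4* came first (−0.76, against −0.48 with it). With Spearman's rho, 3 of the 5 genes stayed among the top 5. *Txnip* went with *Crebrf*, *Klf11* and *Ccng2* (0.78, 0.77 and 0.77), *Arrdc4* with *Slc15a4*, *Hnrnpll* and *Sbk1* (0.72, 0.65 and 0.65) and *Arrdc1* with *Gins4*, *Mapk3* and *Cryl1* (0.73, 0.71 and 0.68). Without *Mtm1*-/y liver 2, *Taf8* came second for *Txnip* (0.80, against 0.60 with it) and *Lepr* first for *Arrdc4* (0.76, against 0.64). For *Arrdc3* the leading genes *Jph1*, *Xirp2* and *Eef1a2* (0.91, 0.90 and 0.89) rested on *Mtm1*-/y liver 2, without which their r was 0.71, 0.61 and 0.51.

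Genes that act with alpha-arrestins were counted from written lists. In the gastrocnemius, of 8 tested ligases of the NEDD4 family 1 rose and 3 fell (14.1% of all genes rose there and 14.9% fell). *Wwp1* fell from 292 ± 28.8 to 173 ± 10.1 CPM (mean ± SD of 4 libraries each, a difference of −0.76 ± 0.08 (SE) in log2, edgeR adjusted p = 0.00034), *Hecw2* fell by 0.72 (adjusted p = 0.031) and *Wwp2* rose by 0.38 (adjusted p = 0.0031). Of 6 ESCRT partners, which carry out vesicle budding, *Pdcd6ip* rose by 0.27 (adjusted p = 0.0064) and *Vps4a* fell by 0.26 (adjusted p = 0.0099, edgeR), while *Tsg101*, the partner of Arrdc1, had a log2 fold change of 0.08 (adjusted p = 0.46). Of 5 genes of the thioredoxin system, *Txn1*, the protein that Txnip binds, rose from 41.2 ± 2.96 to 67.1 ± 11.6 CPM (0.70, SE 0.12, adjusted p = 0.0023, edgeR) and the mitochondrial reductase *Txnrd2* fell by 0.31 (adjusted p = 0.013). Of 5 membrane receptors and transporters tested, 2 rose and 2 fell. *Slc2a4*, the insulin-regulated glucose transporter, fell from 740.0 ± 48.5 to 476 ± 64.7 CPM (−0.64, SE 0.10, adjusted p = 0.0017, edgeR), *Insr*, the insulin receptor, fell by 0.40 (adjusted p = 0.0051), and *Adrb3*, a beta-adrenergic receptor, rose from a very low level (0.218 ± 0.0906 to 0.873 ± 0.384 CPM, adjusted p = 0.0078). Of 2 other arrestins tested, 0 passed with edgeR or DESeq2, and both had an unadjusted p under 0.05 (*Arrb1* −0.29, adjusted p = 0.073, and *Arrb2* 0.33, adjusted p = 0.052, edgeR), and *Arrdc5*, another alpha-arrestin, had reads in only 1 of the 30 libraries.

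The regulators were counted in the gastrocnemius against the same shares of all genes, of which 14.1% rose and 14.9% fell. Of 6 genes of the Mlx network, which relays glucose to *Txnip* and *Arrdc4*, *Mlxip* (MondoA) fell by 0.34 (adjusted p = 0.0040, edgeR) and *Mlxipl* (ChREBP) by 0.44 (adjusted p = 0.011), and 0 rose. Of 5 tested targets of that network, *Gpd1*, of glycerol phosphate metabolism, fell from 997 ± 109 to 464 ± 93.1 CPM (−1.10, SE 0.14, adjusted p = 0.00066, edgeR) and *Klf10* rose by 0.58 (adjusted p = 0.047). Of 5 genes of FoxO factors and the glucocorticoid receptor, *Foxo4* fell by 0.60 (adjusted p = 0.0013) and *Nr3c1*, the receptor, by 0.36 (adjusted p = 0.015, edgeR), and 0 rose. Of 13 genes known to respond to glucocorticoids or FoxO, 4 rose and 1 fell. *Mt2*, a metallothionein, rose from 24.3 ± 10.4 to 149 ± 59.4 CPM (2.61, SE 0.36, adjusted p = 0.00085, edgeR), the cell cycle inhibitor *Cdkn1a* rose by 1.60 and the muscle ubiquitin ligase *Fbxo32* by 1.20, and *Klf9*, named after its values were seen, fell by 0.45. The median log2 fold change of these 13 genes was −0.22, against 0.02 over all genes tested, on the other side of 0 from most of the called members. Of 14 clock genes 0 passed (2 at an unadjusted p under 0.05 with edgeR, against 41.6% of all genes, and 1, *Cry1*, lower with DESeq2). The most abundant of these, *Tef* and *Nr1d1*, had log2 fold changes of −0.22 and −0.25.

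In the other organs edgeR called 0 members of any of these 10 lists, with an unadjusted p under 0.05 for 11 of 75 members tested in the diaphragm (10.8% of all genes), 10 of 71 in the heart (8.88%) and 6 of 72 in the liver (4.24%). DESeq2, which called 2.55% of all diaphragm genes, 0.459% of heart genes and 0.175% of liver genes, called *Tsc22d3* (lower), *Npas2* (higher) and *Nr1d1* (lower) for diaphragm, *Mt2* (lower) for heart and *Klf15* (lower) for liver, named after their values were seen. In the heart, *Mt2* had 35.2 ± 20.4 CPM (mean ± SD of 4 WT) against 13.4 ± 3.69 CPM (4 *Mtm1*-/y; adjusted p = 0.55 with edgeR and 0.023 with DESeq2), opposite in direction to the gastrocnemius. *Klf15*, a glucocorticoid-induced factor of fasting metabolism, had 248 ± 17.7 CPM in 3 WT livers against 156 ± 18.5 CPM in 4 *Mtm1*-/y livers, with adjusted p of 0.50 (edgeR) and 0.0012 (DESeq2). Within groups, the list genes with the highest r with *Arrdc2* were *Klf9* (0.57), *Pdk4* (0.55), *Foxo1* (0.54) and *Foxo3* (0.50), and with *Txnip* they were *Foxo3* (0.75), *Pdk4* (0.63) and *Klf9* (0.61), over the same 30 libraries. Some other genes known to respond to glucocorticoids or FoxO had an r below 0 with *Arrdc2*, among them *Sgk1* (−0.19), *Zbtb16* (−0.07) and *Fkbp5* (−0.04).

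The *Mtm1*-/y liver with 271 CPM of *Arrdc3* stood apart in other genes. *Dbp*, a transcription factor driven by the circadian clock, was at 103 plain CPM in it and at 0.789 to 11.7 plain CPM in the other 6 livers. *Per3* was at 27.6 plain CPM against 1.42 to 8.71, and *Nr1d1*, a repressor of the clock, at 193 against 34.6 to 106. In the opposite direction, *Npas2*, which pairs with Bmal1, was at 0.103 plain CPM against 2.25 to 5.81, and *Arntl*, which encodes Bmal1, at 7.95 against 20.1 to 29.0. *Ddit4*, a stress-induced inhibitor of mTORC1, was at 3.96 plain CPM against 21.7 to 78.8. The 5 macrophage markers summed to 30.6 plain CPM in this liver and to 81.0 to 131 in the others, and the 6 skeletal fibre markers to 87.9 against 6.20 to 33.2. *Arrdc2*, at 22.5 CPM, was within the range of the other *Mtm1*-/y livers, as were *Txnip*, *Arrdc4* and *Arrdc1*. These clock genes were chosen for display after their values were seen, and their part in the *Arrdc3* level was not tested.

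**Figure D4:**
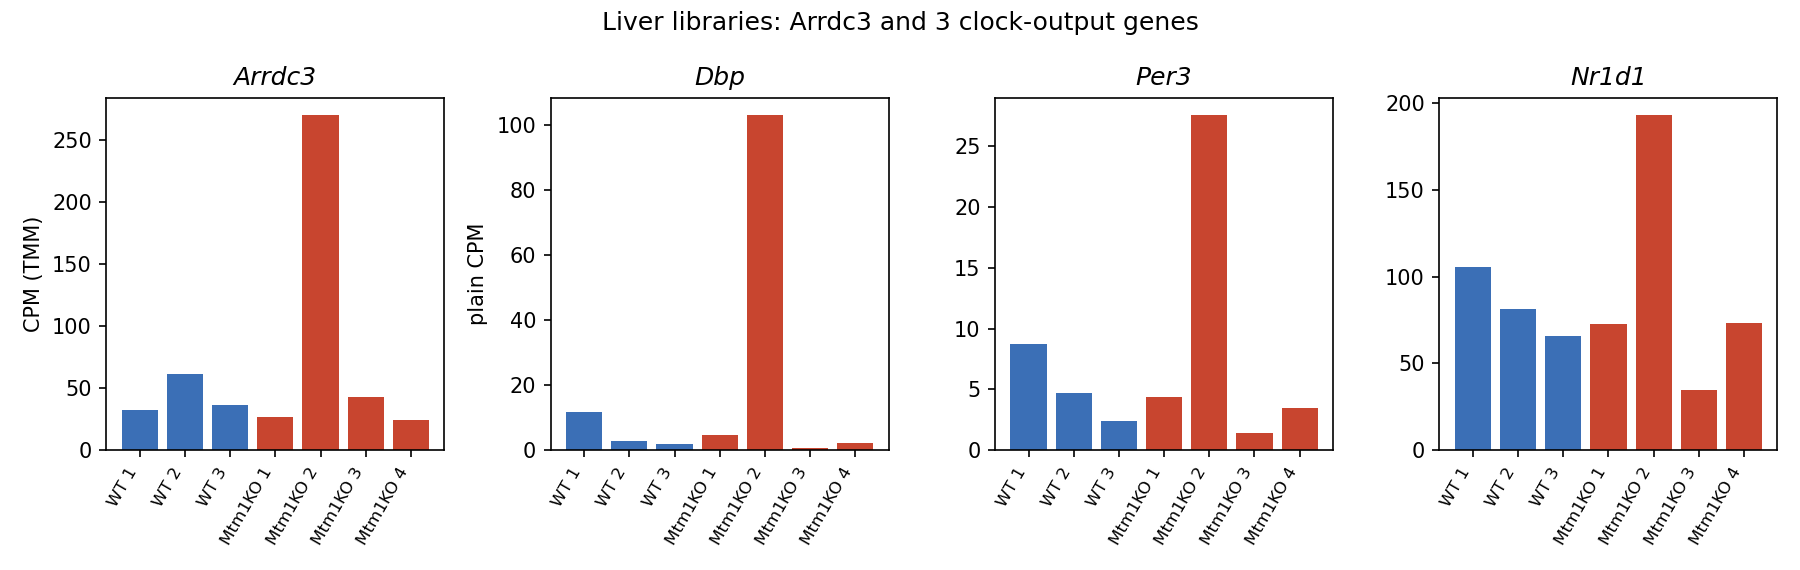
Level of *Arrdc3* (CPM, TMM-scaled) and of the clock genes *Dbp*, *Per3* and *Nr1d1* (plain CPM) in each of the 3 WT (blue) and 4 *Mtm1*-/y (red, labelled Mtm1KO) livers, each bar 1 library. *Mtm1*-/y liver 2 has the highest bar in all 4 panels, at 271, 103, 27.6 and 193.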

How the data were processed

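Poly(A) RNA was sequenced from 30 organs with a stranded kit. Per the labels and the methods of the study, reads were demultiplexed with bcl2fastq 2.17.1.14, trimmed with cutadapt 1.10, aligned to mm10 with STAR 2.5.3a and counted per Ensembl gene with HTSeq 0.6.1p1 from uniquely aligned reads. The strand setting of the counting is not given in the sources used here. The deposited values are raw counts, used as the authors deposited them, and 84 of 36103 genes had no count. Groups came from the sample titles. Same-numbered libraries are not stated to share an animal, and p-values measure the spread between these libraries. Same-numbered libraries of the 2 genotypes deviated together (correlation over 0.1) in 7 of 14 pairs, and those of 2 organs in 15 of 42. These counts do not settle whether organs share an animal, and numbers were not taken as pairs. If same-numbered organs share an animal, the p-values of the mean over organs are too small and its intervals too narrow.

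Within each organ, genes were filtered with filterByExpr (count minimum 10), scaled by TMM and compared with the quasi-likelihood test of edgeR 4.0.16, adjusted by Benjamini-Hochberg over all genes tested and called at an adjusted p under 0.05, in R 4.3.3. The mean effect and its difference between organs came from 1 fit of 8 groups, and the WT organs from a fit of 15 libraries. DESeq2 1.42.0, its size factors, no filter, a replicate block (also with limma 3.58.1) and leaving out each library were alternatives. Likeness used log2 CPM with a prior count of 2 and genes of at least 5 CPM in the mean. The 5 members, the lists, the markers and the naming rule were chosen with earlier results of these data known. The rule names the members, *Mtm1*, the genes most like each member, and per list up to 3 called genes of smallest p or else the 2 most abundant. The motifs were chosen after the sequences were seen. The fits were tested on simulated data in which all genes of an organ shared 1 spread, unlike the genes here. The outcome is not given, and that test does not cover genes that vary as much as *Arrdc2* or *Txnip*. Positions are from GENCODE M21 and promoters from RefSeq, in which all 5 members matched.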

Additional observations from a re-analysis of the deposited data

Results flagged for a closer look

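*Arrdc3* in *Mtm1*-/y liver 2, at 271 CPM, lay far from the other 3 *Mtm1*-/y livers, which were at 24.6 to 42.8 CPM. Its gap to the nearest of them took up more of the group's range than a 4-sample group is allowed by Dixon's criterion at the 95% level. Of 30 groups of 4 libraries examined, 1 stood out in this way, and chance alone marks about 1 group in 20. The same library held the highest *Dbp*, *Per3* and *Nr1d1* and the lowest *Npas2* of the 7 livers.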

How the results depend on the processing

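0 of 4 paralogs passed in the diaphragm, heart and liver and for the mean and the difference between organs under each alternative run and with any 1 library left out. In the main edgeR fits only 0.0119%, 0.00656% and 0% of all genes passed in those 3 organs, so a count of 0 says little there. For the mean and the difference 4.78% and 5.25% of all genes passed. In the gastrocnemius the count ran from 0 to 1 over the libraries left out (*Arrdc1* or *Txnip*). All of the other alternatives there gave 0. Members differing between WT organs numbered 4, and 3 to 4 with a WT library left out. Of the 5 genes most like *Arrdc2*, 3 stayed with Spearman's rho. Without the diaphragm libraries high in *Alb*, an alternative chosen after seeing the data, the *Arrdc2* value was −2.27 and *Arrdc4* turned from −0.12 to 0.29. In the same way, with 1 WT diaphragm left, *Arrdc4* in WT gastrocnemius against diaphragm turned to 0.24 and *Arrdc2* in WT diaphragm against liver to 0.061, the counts of members called did not change, and *Arrdc1* and *Arrdc2* no longer passed between gastrocnemius and diaphragm. The mean of *Arrdc3* was −0.0036 with a random replicate block (limma voom). *Arrdc4* in WT diaphragm against liver was 0.039 with no filter and 0.017 with a replicate block. The replicate block left every genotype count at 0 and let WT gastrocnemius against diaphragm pass for *Arrdc3* (−0.54, adjusted p = 0.047, edgeR) and *Txnip* (0.61, adjusted p = 0.045). With 1 library left out, values that crossed 0 ran from −0.023 to 0.15 (*Arrdc4*, gastrocnemius), −0.17 to 0.0058 (*Arrdc1*, diaphragm), −0.13 to 0.63 (*Arrdc4*, liver) and −0.47 to 1.41 (*Arrdc3*, liver). The means over organs ran from −0.017 to 0.18 (*Arrdc4*), −0.17 to 0.013 (*Txnip*) and −0.21 to 0.25 (*Arrdc3*). Between WT organs they ran from −0.17 to 0.039 (*Arrdc3*, gastrocnemius against heart), −0.24 to 0.53 (*Arrdc4*, diaphragm against liver), −0.56 to 0.020 (*Arrdc2*, diaphragm against liver) and −0.34 to 0.43 (*Arrdc4*, gastrocnemius against liver). Apart from where the libraries left out or the filter name it, the cause was not tested.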
